A study of Mus musculus with 4 samples.

Results

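Transcripts of glycolysis, glucose and lactate transport and the response to low oxygen were compared in mouse forelimb buds with and without Shox2, a homeobox gene that the humerus and femur need in order to grow. The 40 genes were listed by name: 18 glycolytic enzymes, 4 transporters, 4 enzymes that switch the flow of carbon, 12 other genes induced by hypoxia and 2 subunits of the hypoxia-inducible factor (HIF). Of these, 37 had a named probe set among the 23185 named genes of the table; Gpi1, Gapdh and Eno1 were not analysed here. In all, 34 passed a filter on dim probe sets and were tested among 14095 genes, and Aldoa, Car9 and Adm lay below it. All embryos were of strain C57BL/6 and stage E11.5, and forelimbs of the same genotype were pooled, 3 to 4 per array by the sample labels (the design text gives that number for embryos, from 2 pregnancies). Each genotype, called WT and SHOX2-KO in the labels, had 2 arrays, numbered 48 and 50 in their titles. Values are given in the order 48, 50 for each genotype, and the 48 pair and the 50 pair are the knockout and wild-type arrays that share a number, whose meaning the labels do not state. Neither the kind of Shox2 allele nor whether all cells lost it was stated in the sources used here.

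Glycolysis splits glucose into pyruvate, and lactate dehydrogenase turns pyruvate into lactate when cells do not oxidise it. HIF is a pair of proteins whose alpha subunit is hydroxylated by oxygen-dependent prolyl hydroxylases and then destroyed, so that it builds up when oxygen is low. It binds short DNA elements near its target genes, among them most glycolytic enzymes, glucose and lactate transporters, and genes of mitochondrial turnover, collagen modification and growth control. The early limb bud is known for a high rate of glycolysis and for avascular regions where cartilage forms.

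The DNA before the start of 4 members is shown because these had the smallest unadjusted p among members with a promoter entry, and because the core of the HIF element, ACGTG or GCGTG on either strand (CACGT or CACGC on the printed strand), is the sequence feature these genes are known for. Sequences are from RefSeq (GRCm38.p6), read in the direction of transcription, with cores in capitals. For Tpi1 (chr6:124814159-124814408, minus strand) and Pfkl (chr10:78009808-78010057, minus strand) the 250 bases before the start are given. The windows of Slc16a3 and Pfkfb3 touch the span of the gene itself, so 30 bases are given for each, from chr11:120949034-120949063 (plus strand) and chr2:11553973-11554002 (minus strand).
Slc16a3: gcggtgACGTGcgcgggggACGTGccgcgc
Pfkfb3: cctccgcgccgtgACGTGccaagctgtgac
Pfkl: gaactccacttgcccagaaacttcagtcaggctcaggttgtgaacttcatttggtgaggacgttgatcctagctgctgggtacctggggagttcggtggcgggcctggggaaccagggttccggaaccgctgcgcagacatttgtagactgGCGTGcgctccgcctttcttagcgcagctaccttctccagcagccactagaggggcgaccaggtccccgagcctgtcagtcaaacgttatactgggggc
Tpi1: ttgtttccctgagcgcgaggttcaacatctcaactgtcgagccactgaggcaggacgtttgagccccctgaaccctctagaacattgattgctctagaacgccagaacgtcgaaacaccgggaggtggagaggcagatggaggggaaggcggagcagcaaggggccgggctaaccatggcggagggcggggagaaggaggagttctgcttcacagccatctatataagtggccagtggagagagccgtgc
Slc16a3 had cores beginning 27 and 14 bases before its start, Pfkfb3 1 core at 60 bases and Pfkl 1 at 99 bases, and Tpi1 had 0 in its window. Of 34 members with both a probe set and a promoter entry, 28 (82.4%) held at least 1 core within the 250 bases before their first listed start, against 55.4% of the 10878 tested genes with an entry and 38.6% of all 27025 genes in the promoter table. A CACGTG counts as ACGTG and as its reverse, which overlap, but the gene is counted once. By role, 10 of 15 glycolytic enzymes and 10 of 11 other HIF targets held a core. Among tested members, 12 of the 16 whose knockout pools were both above both wild-type pools held a core, and 14 of the 15 others with an entry did. A core here is a match of letters only.

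The limb mesenchyme gene Prrx1 and the forelimb gene Tbx5 stood at percentiles 99.8 and 99.6 of mean level. All 10 limb mesenchyme markers looked up passed the filter, as did all 11 erythroid, 12 endothelial and 12 muscle markers with a probe set. Passing it alone therefore does not tell the tissue. Shox2 differed by -1.24 ± 0.21 (log2, SE) and missed the threshold (limma, adjusted p = 0.322); where its probes lie was not stated in the sources used here, so a residual signal says nothing of the deletion. The knockout pools differed from the wild type in sex-linked transcripts: Y-linked Eif2s3y read 9.56 and 9.65 in the mutants, against 5.37 and 5.26 in the controls, and Xist 12.002 and 11.68, against 12.83 and 12.88. Pgk1 is the only X-linked gene among the 40, but sex and genotype cannot be told apart for any of them. Summed on the linear scale, the signal of 11 erythroid markers (9 of them with a lower mean in the knockout) was 13970 to 14080 in the knockout, against 14260 to 15540 in the controls, and that of 12 endothelial markers (10 lower) 6386 to 6669 against 7017 to 7182. The sum of epithelial markers (10 genes, 7 with a higher and 3 with a lower mean, 1793 to 1951 against 1626 to 1760) was higher in the knockout. So was that of limb mesenchyme markers (10 genes, 8 higher and 2 lower, 20810 to 22750 against 20700 to 20790). There knockout array 50 (20810) barely exceeded wild-type array 48 (20790). Muscle markers overlapped (12 genes, 10350 to 10520 against 9215 to 10400). Of the neuronal and macrophage markers, 5 of 10 and 3 of 10 were below the filter. In pooled tissue, fewer cells of a type and less of its RNA per cell cannot be told apart.

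The members leaned upward in the Shox2 knockout, by amounts that were small for each gene. They were chosen with earlier results of these data known, which limits what counts set against all genes can show. Of the 34 tested, 25 had higher and 9 lower values, where 49.6% of all tested genes had higher ones. The median log2 difference, knockout minus wild type, was 0.082, and the median over all tested genes was -0.00098. In limma without covariates 0 members passed at an adjusted p under 0.05 (0.0213% of all genes did; smallest adjusted p of a member 0.322, for Slc16a3). The 3 genes that passed were the Y-linked Eif2s3y, Uty and Kdm5d. Unadjusted p-values under 0.05 were found for 5 members with higher values (14.7%) and 0 with lower ones, against 5.19% and 5.0% of all tested genes (10.2% in either direction). These 5 were Slc16a3, Tpi1, Pfkfb3, Pfkl and Egln1. With each array left out in turn, their differences ran from 0.29 to 0.51, 0.26 to 0.41, 0.21 to 0.34, 0.18 to 0.36 and 0.16 to 0.28, in that order. Both knockout pools read above both wild-type pools in 16 members (47.1%), against 22.1% of all genes, and below them in 0, against 19.9% (42.0% in either direction). The sex-linked transcripts divided the pools as the genotypes did, so sex and genotype cannot be told apart in these counts. The erythroid, endothelial, epithelial and mesenchymal signals above moved with the same pools, and their part in these counts was not tested.

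**Figure D1:**
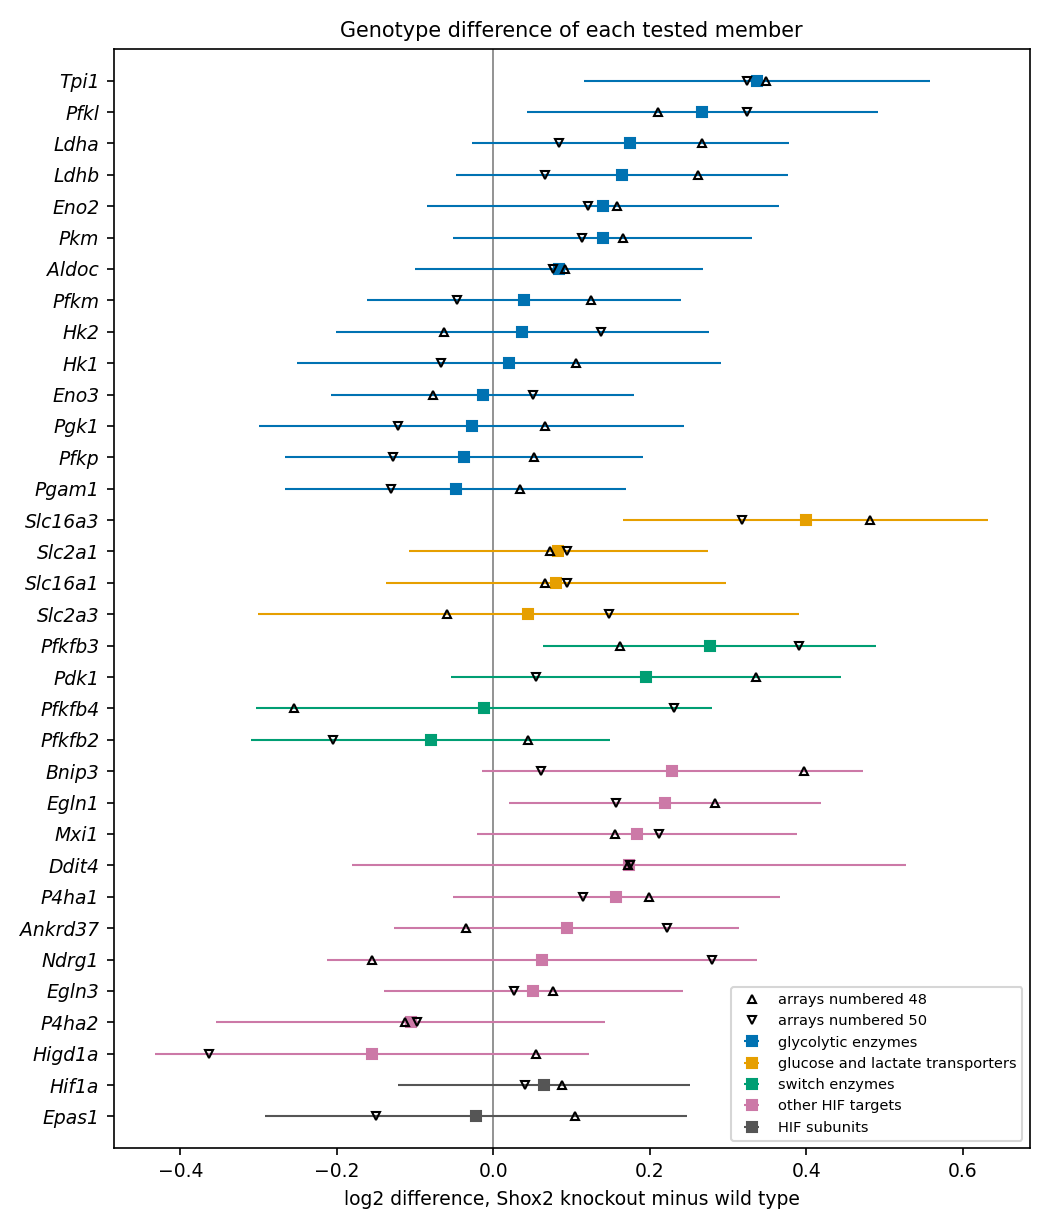
Log2 difference between the Shox2 knockout and the wild type (x axis) for each of the 34 tested members, grouped and coloured by role; squares are limma estimates with 95% intervals from the moderated fit, open triangles the difference within the arrays numbered 48 (up) and 50 (down). The intervals of 5 members, Slc16a3, Tpi1, Pfkfb3, Pfkl and Egln1, lie above 0, unadjusted for the number of genes, and that of no member lies below it.

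Among the glycolytic enzymes, the largest positive differences were those of Tpi1, Pfkl, Ldha and Ldhb, none of which passed. Those of the hexokinases, Pfkm and Pfkp were near 0. Triose phosphate isomerase, Tpi1, read 11.08 and 11.20 in the mutants, against 10.73 and 10.87 in the controls on the log2 scale. Both knockout pools were above both wild-type pools, by a log2 difference of 0.34 ± 0.092 (SE), or 1.26-fold (limma, unadjusted p = 0.0091, adjusted p = 0.368). The 48 pair gave 0.35 and the 50 pair 0.32. Pfkl, the liver-type subunit of phosphofructokinase, which commits sugar to glycolysis, read 9.40 and 9.33 in the mutants, against 9.19 and 9.002 in the controls. The groups did not overlap and the difference was 0.27 ± 0.094 (limma, unadjusted p = 0.0264, adjusted p = 0.421); it was 0.18 without wild-type array 50. The other subunits of that enzyme did not show this: Pfkm differed by 0.039 ± 0.084 and Pfkp by -0.038 ± 0.095, and both overlapped.

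Ldha, the lactate dehydrogenase subunit that favours lactate production, read 12.39 and 12.30 in the mutants, against 12.13 and 12.22 in the controls. The pools did not overlap, and the difference of 0.18 ± 0.085 did not pass (limma, unadjusted p = 0.0792, adjusted p = 0.538). Ldhb, the subunit common in oxidative tissue, differed by 0.16 ± 0.089, and followed Ldha across the arrays: the 48 pair gave 0.27 for Ldha and 0.26 for Ldhb, and the 50 pair 0.084 and 0.066. The pyruvate kinase gene Pkm (0.14 ± 0.080), the enolase gene Eno2 (0.14 ± 0.094) and the aldolase gene Aldoc (0.084 ± 0.077) also had separated pools without passing. In all, 7 of 14 tested enzymes had both knockout pools higher, 0 had both lower, and 10 of 14 had higher means, where the shares of all tested genes were 22.1%, 19.9% and 49.6%.

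The remaining enzymes overlapped. Hexokinases, which trap glucose in the cell, stood at 0.020 ± 0.11 for Hk1 and 0.037 ± 0.099 for Hk2. The muscle-enriched enolase gene Eno3 differed by -0.013 ± 0.081 and the mutase gene Pgam1 by -0.048 ± 0.091. Pgk1, encoding phosphoglycerate kinase, read 6.50 and 6.21 in the mutants, against 6.43 and 6.33 in the controls. Its knockout pools lay on either side of the wild-type pools and its difference was -0.028 ± 0.11 (limma, adjusted p = 0.955); it was 0.12 without knockout array 50, 0.022 without wild-type array 48 and -0.17 without knockout array 48. Aldoa, the main aldolase of embryonic tissue, was read at only 5.43 and 5.20 in the mutants, against 5.69 and 5.47 in the controls, below the filter level of 5.599 on average, and was not tested; both knockout pools were below both wild-type pools (log2 difference -0.26), against the direction of most members. Mouse Gapdh, Eno1, Aldoa, Tpi1, Pgk1, Pgam1, Ldha and Pkm have processed copies elsewhere in the genome. What the probe sets of Aldoa, Tpi1, Pgk1, Pgam1, Ldha and Pkm read is therefore uncertain, and Gapdh and Eno1 had no named probe set. The pseudogene Gapdh-ps15, looked at after Gapdh proved to have no named probe set, differed by -0.013 ± 0.14 and does not stand for Gapdh.

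**Figure D2:**
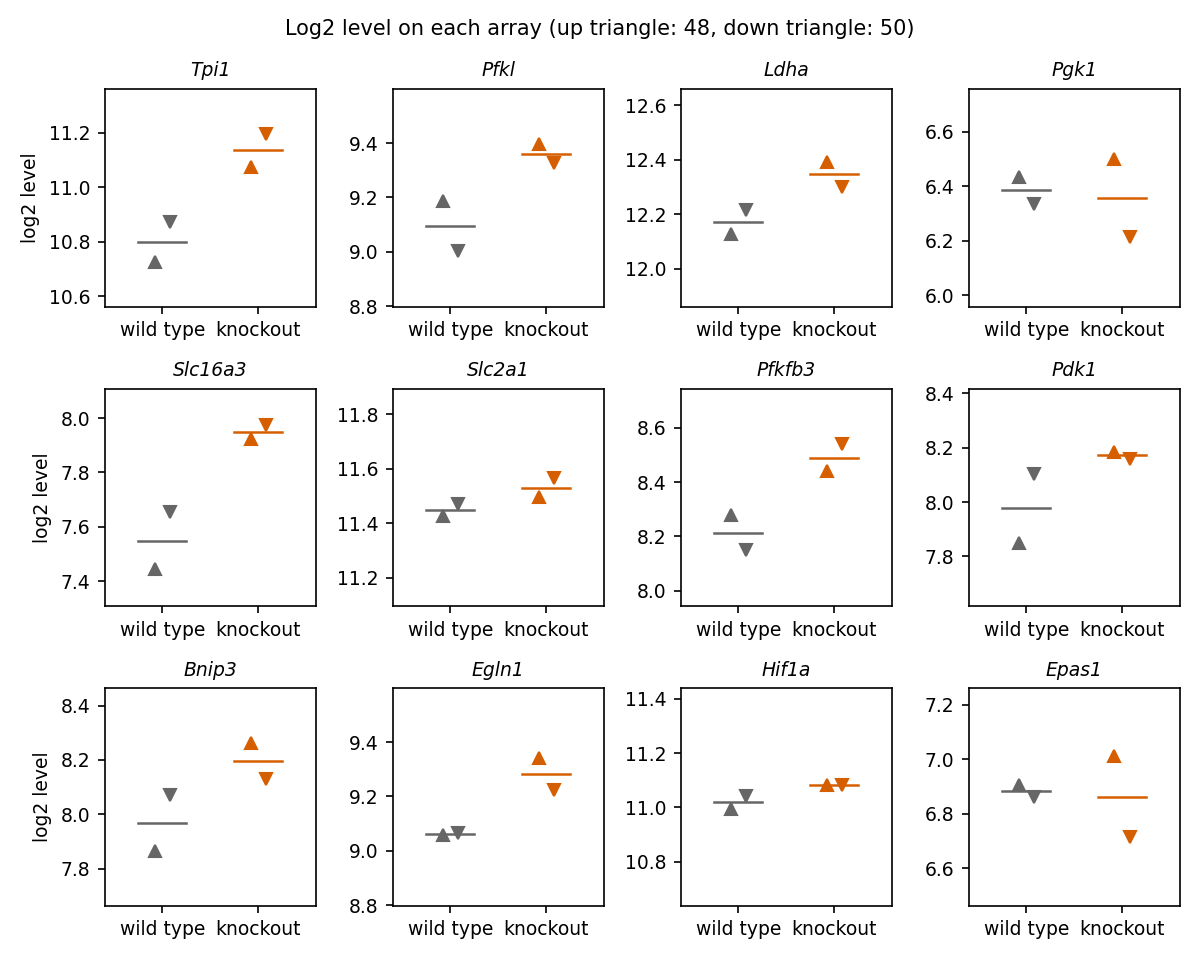
Log2 level (y axis, every panel spanning the same range of log2 units) on each array for 12 tested members described with all their values; grey marks wild type, orange the Shox2 knockout, up triangles the arrays numbered 48, down triangles those numbered 50, and lines the group means. The pools are separated in 10 of the panels, and in Pgk1 and Epas1 the knockout pools lie on either side of the wild-type pools.

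The transporters included the member with the largest difference. Slc16a3 encodes MCT4, a carrier that exports lactate from glycolytic cells and is a known HIF target. It read 7.92 and 7.97 in the mutants, against 7.44 and 7.66 in the controls. Both knockout pools were higher, by a log2 difference of 0.40 ± 0.098 (SE; 95% interval 0.17 to 0.63), or 1.32-fold (limma, unadjusted p = 0.0052, adjusted p = 0.322). It ranked at place 221 of the 14095 genes by p. Slc16a1, which encodes the more widely expressed carrier MCT1, differed by 0.080 ± 0.091 with overlapping pools. Slc2a1, encoding the glucose carrier GLUT1, read 11.498 and 11.56 in the mutants, against 11.43 and 11.47 in the controls. These pools did not overlap, but the difference of 0.083 ± 0.080 was close to its error (limma, adjusted p = 0.774) and was 0.050 without knockout array 50. Slc2a3, encoding GLUT3, differed by 0.045 ± 0.14; within each genotype it was higher on array 50 than on array 48, by 0.40 in the knockout, against 0.19 in the controls. All 4 transporters had higher means in the knockout (49.6% of all tested genes did) and 2 had separated, higher pools (22.1% of all genes), a count too small to set against that share.

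The switch enzymes were split. Pfkfb3, a bifunctional enzyme that makes the activator of phosphofructokinase, read 8.44 and 8.54 in the mutants, against 8.28 and 8.15 in the controls. Both knockout pools were higher, by 0.28 ± 0.089 (SE; limma, unadjusted p = 0.0184, adjusted p = 0.405). Its relatives did not share this: Pfkfb2 differed by -0.080 ± 0.096 and Pfkfb4, a strong HIF target in other tissues, by -0.012 ± 0.12. For Pfkfb4 the pairs gave opposite signs, -0.25 for 48 and 0.23 for 50. Pdk1, which shuts pyruvate dehydrogenase and so keeps pyruvate out of the mitochondrion, read 8.18 and 8.16 in the mutants, against 7.85 and 8.10 in the controls. The pools did not overlap and the difference was 0.19 ± 0.10 (limma, unadjusted p = 0.106, adjusted p = 0.578). It was 0.068 without wild-type array 48 and 0.32 without wild-type array 50.

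Of the other HIF targets, 8 of 10 tested genes had higher means in the knockout (49.6% of all tested genes did) and 4 had separated, higher pools (22.1% of all genes). The 1 gene with an unadjusted p under 0.05 is no more than the 10.2% found over all genes in either direction. Egln1, the prolyl hydroxylase PHD2 that marks HIF alpha subunits for destruction and is itself induced by HIF, read 9.34 and 9.22 in the mutants, against 9.06 and 9.07 in the controls. The difference was 0.22 ± 0.083 (SE; limma, unadjusted p = 0.0352, adjusted p = 0.448). Egln3, the related hydroxylase PHD3, differed by 0.051 ± 0.080 with overlapping pools. Bnip3, a mitochondrial protein that promotes mitophagy, read 8.26 and 8.13 in the mutants, against 7.87 and 8.07 in the controls. Its pools did not overlap, its difference was 0.23 ± 0.10 (limma, adjusted p = 0.510), and the 48 pair gave 0.40 where the 50 pair gave 0.060; it was 0.13 without wild-type array 48.

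Mxi1, a repressor that opposes MYC, differed by 0.18 ± 0.086 and P4ha1, a subunit of the collagen prolyl hydroxylase, by 0.16 ± 0.087, both with separated pools. P4ha2, the other catalytic subunit of that hydroxylase, had a negative difference (-0.11 ± 0.10) and was the only tested member lower in the knockout in the 48 pair (-0.11) as well as the 50 pair (-0.098). The stress gene Ddit4 differed by 0.17 in both pairs, but its level also depended on the number, being lower on array 50 by 0.32 in the knockout, against 0.33 in the controls (array 50 minus array 48: -0.32 and -0.33), so the pools overlapped. Ankrd37 (0.094 ± 0.092) and Ndrg1 (0.062 ± 0.11) overlapped and had opposite signs in the pairs. Higd1a, a mitochondrial protein, had the most negative difference of all tested members, -0.15 ± 0.12, which came from knockout array 50 (5.61, against 5.84 to 5.97 on the other arrays). Car9, the carbonic anhydrase often used as a hypoxia marker, and Adm, the vasodilator adrenomedullin, stayed below the filter, at mean log2 levels of 5.61 and 5.32 in the mutants, against 5.54 and 5.36 in the controls; the pools were separated for Car9 (log2 difference 0.065) and overlapped for Adm.

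The HIF alpha subunits differed little in transcript level. Hif1a read 11.08 on both knockout arrays and 10.99 and 11.04 on the wild-type arrays, a difference of 0.064 ± 0.078 (SE; 95% interval -0.12 to 0.25; limma, adjusted p = 0.825). The pools did not overlap, though the gap was smaller than the error of the fit, and the difference was 0.040 without wild-type array 48. Epas1, which encodes HIF-2 alpha and is prominent in endothelium, read 7.01 and 6.71 in the mutants, against 6.91 and 6.86 in the controls, a difference of -0.022 ± 0.11 (limma, adjusted p = 0.964). Its direction depended on the arrays, with 0.13 without knockout array 50 and -0.17 without knockout array 48. HIF is regulated largely through the stability of its alpha subunits, which arrays do not measure.

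Glycolytic enzymes and other HIF targets were then set side by side. Their median log2 differences were 0.062 (14 tested genes) and 0.13 (10 tested genes). In the 48 pair both medians were 0.12, and in the 50 pair they were 0.071 and 0.14. The order was not stable: the median of the other HIF targets exceeded that of the glycolytic enzymes by 0.064 with all arrays, by 0.099 without knockout array 48 and by 0.060 without wild-type array 48, but lay below it (-0.018 and -0.024) without knockout array 50 and without wild-type array 50. The means were 0.091 for both. With 14 and 10 genes read on the same 4 arrays, the order of the roles thus changed with the arrays used, and no test was made of it.

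**Figure D3:**
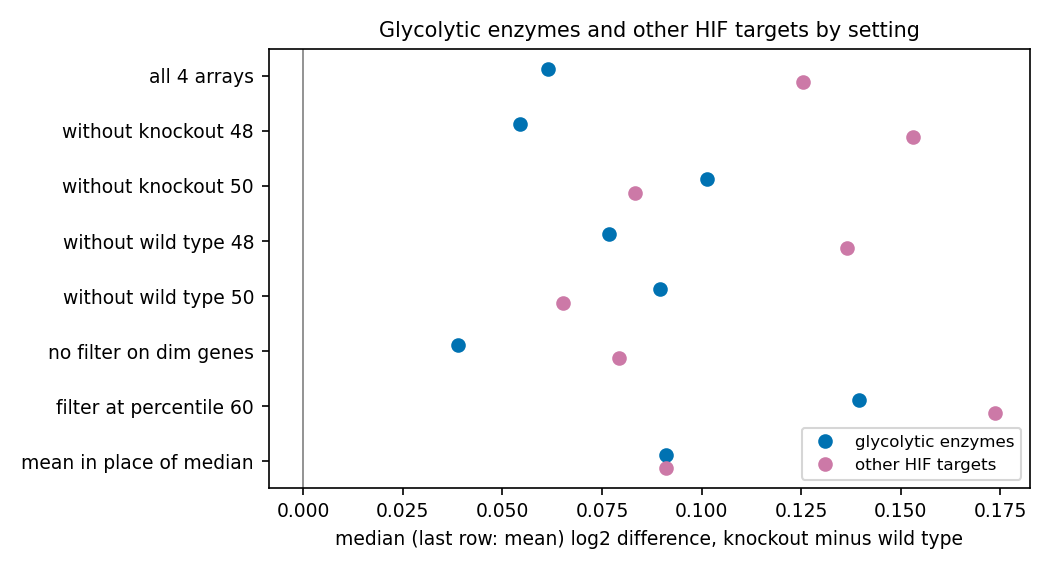
Median log2 difference, knockout minus wild type (x axis), of the glycolytic enzymes (blue) and the other HIF targets (pink) with all 4 arrays, with each array left out, with other filters on dim genes, and as a mean. Every point lies above 0, while the order of blue and pink changes without array 50 of either genotype.

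Members differed among themselves in how they followed the array numbers. In the 48 pair 27 of 34 members were higher in the knockout, and in the 50 pair 25 were. Of all 14095 tested genes 7090 and 7122 were, in that order. In 19 members (55.9%) both pairs gave a higher value, against 32.1% of all tested genes. In 1 member (P4ha2) both gave a lower one, against 4363 of the 14095 tested genes. Wild-type array 48 gave the lowest reading in 17 members, where it did so in 28.2% of all genes. It gave the highest in 2, Hk2 and Pfkfb4, against 26.4% of all genes. The knockout arrays gave the highest reading in 14 members each, where arrays 48 and 50 did so in 23.6% and 27.9% of all genes. Hk1, Pgk1, Pgam1, Pfkfb2, Higd1a and Epas1, 6 of 34, had their lowest reading on knockout array 50, as 26.0% of all genes did. These 6 overlapped between the genotypes, but a gene lowest there cannot have both knockout pools higher, so this adds nothing to the counts. Of 26 members at or above percentile 60 of mean level, 22 had higher values in the knockout, with a median of 0.11. Of all tested genes that bright 48.8% had higher values. Of the 8 dimmer tested members 3 did, with a median of -0.033, where 51.4% of all dimmer tested genes did. A count of 8 members is too small to set against that share. The dimmer ones were Pfkp, Aldoc, Pgk1, Pgam1, Eno2, Ankrd37, P4ha2 and Higd1a (the threshold was chosen as one of the filters). The part of brightness in the differences was not tested.

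**Figure D4:**
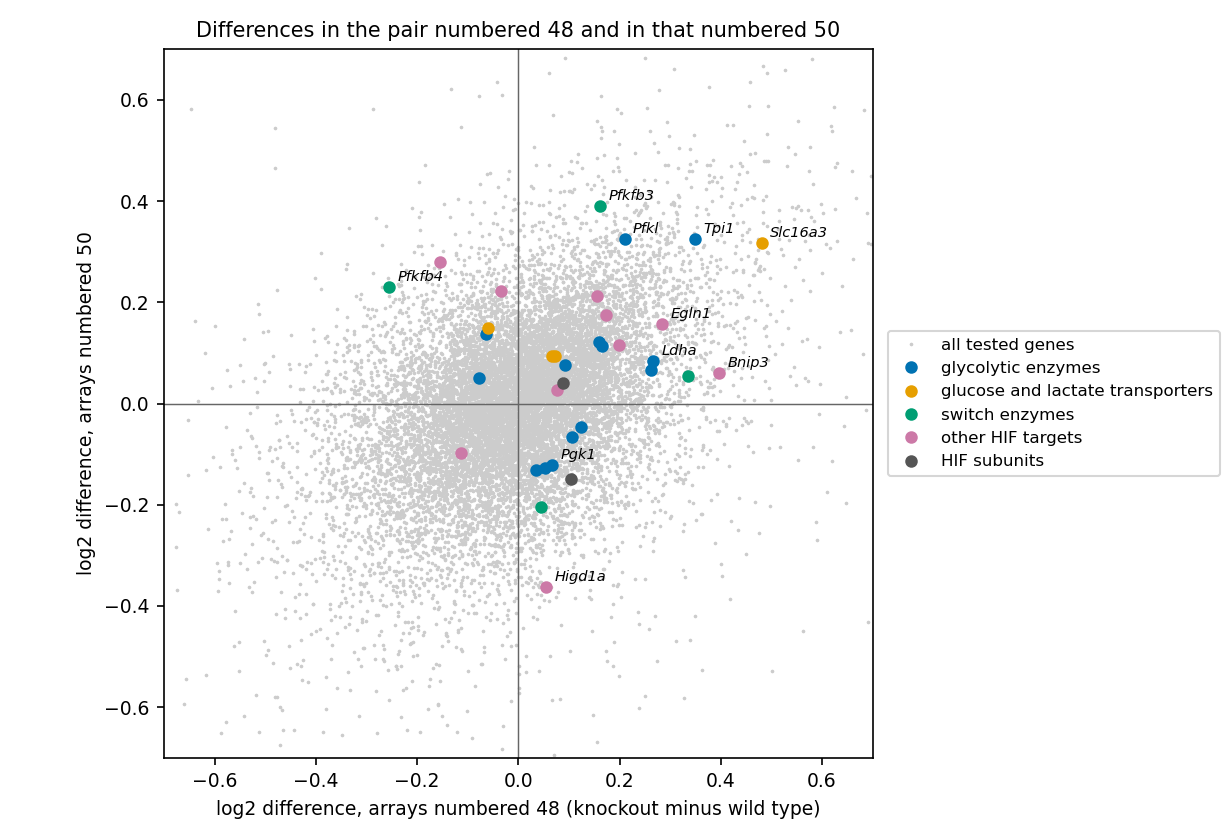
Log2 difference, knockout minus wild type, of the 48 pair (x axis) and of the 50 pair (y axis) for all tested genes (grey) and the 34 members (coloured by role); 98 genes lie outside the plotted range. Members gather at the upper right, with 19 above 0 on both axes and only P4ha2 below 0 on both.

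Other genes of the same pathways were read from a list of 108 names, of which 92 were tested; 6 were higher and 5 lower at an unadjusted p under 0.05, near the 10.2% of all tested genes, and 0 passed in limma. Of 27 tested further HIF targets 19 had higher means (49.6% of all tested genes did), with a median of 0.061, and 4 were higher and 1 lower at an unadjusted p under 0.05 (5.19% and 5.0% of all genes). The histone demethylase gene Kdm3a differed by 0.23 ± 0.087 (SE), and Pgf, which encodes placental growth factor, by -0.43 ± 0.078 (limma, adjusted p = 0.444 and 0.322). Pgf read 5.77 and 5.74 in the mutants, against 6.20 and 6.16 in the controls, and so went against most of this list with well separated pools; it acts on endothelium, whose markers were lower in the same pools, and their part in its value was not tested. Genes of HIF regulation had a median of 0.031 over 15 tested and 0 at an unadjusted p under 0.05. Their 2 smallest unadjusted p belonged to Cited2, an inhibitor that competes with HIF for its coactivators (0.25 ± 0.11), and Hif1an, the asparaginyl hydroxylase FIH (0.16 ± 0.077). Among 9 tested isozymes and further carriers, 4 were higher and 5 lower. Slc2a8, an intracellular sugar carrier, differed by 0.39 ± 0.085, and Bpgm, the mutase that makes bisphosphoglycerate in red cells, by -0.39 ± 0.090 (limma, adjusted p = 0.322 for both). Erythroid markers were lower in the same pools (9 of 11 with a lower mean), and their part in the value of Bpgm was not tested.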

How the data were processed

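RNA of 4 pools was measured on arrays. The authors deposited a table of log2 values, 1 per probe set and array; arrays were hybridised with biotinylated cRNA (Affymetrix, per the labels' protocols), and background correction and probe summarisation are not given in the sources used here. Sorted values of the arrays differed by at most 0.00171, as after quantile normalization, which hides any change common to most transcripts. Probe sets were named from the platform annotation (23185 of 25206). Symbols missing there were looked up through RefSeq synonyms and Entrez Gene identifiers. Genes at or above percentile 40 of mean level were tested with limma 3.58.1 (lmFit, eBayes, R 4.3.3), two-sided, Benjamini-Hochberg adjusted, without covariates; standard errors are moderated and SDs are not quoted because groups hold 2 arrays. The number of arrays limits precision, and p-values measure only the spread between these pools.

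Members and lists were chosen with earlier results of these data known, so lists get counts and medians only. Members given with every array's value were those with unadjusted p under 0.05, the 2 largest differences per role, and Hif1a, Epas1, Slc2a1, Ldha and Pgk1 (Gapdh, also on that rule, had no probe set); from each related role, the 2 smallest p. Aldoa's values were added after they were seen. The other members, and Gapdh-ps15, are named with less. The fit was tested on simulated data with 200 of 14095 genes changed (10 runs). It recovered 17.6% of genes shifted by 0.5 log2 units and 91.4% of those shifted by 2. The largest difference of a tested member was 0.40, so a change of such size would mostly be missed. Alternatives were other filters, centring, quantile normalization, eBayes settings, a block for the array number, means and each array left out. Figures used matplotlib 3.10.9 in Python 3.11.15.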

Additional observations from a re-analysis of the deposited data

How the results depend on the processing

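Leaving out each array in turn, which takes the spread of the genotype with 1 array from the other genotype, 4 to 5 genes were called (3 with all arrays), 0 of them members (smallest adjusted p of a member in limma 0.29 to 0.78). The median of the glycolytic enzymes then ran from 0.054 to 0.10, that of the other HIF targets from 0.065 to 0.15, and their difference from -0.024 to 0.099. Pgk1 ran from -0.17 to 0.12 and Epas1 from -0.17 to 0.13, crossing 0. Of 34 members, 23 to 27 had a higher mean in these runs, where 49.3% to 51% of all tested genes did. Without the filter on dim genes the medians were 0.039 for the enzymes and 0.079 for the other HIF targets; with a filter at percentile 60 the medians were 0.14 for the enzymes and 0.17 for the other HIF targets, a difference of 0.034. Fewer and brighter genes were then tested. Means in place of medians gave 0.091 and 0.091, a difference of -0.00011. Counting at an unadjusted p under 0.05 gave 5 members, 7 with an intensity trend and 8 without the filter (of 37), all higher in the knockout. The shares of all genes that were higher at that level were 5.19%, 5.14% and 4.96%, in the same order.

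Arrays of the same number deviated together (r = 0.388 across the tested genes, which are not independent replicates), but with 2 pairs and no label for the number they share only a number. In limma a replicate block called 382 of the 14095 tested genes. Among them were 2 of the 34 members, Slc16a3 (adjusted p = 0.0349) and Tpi1 (adjusted p = 0.0495), both higher in the knockout. With the block 8 members had an unadjusted p under 0.05, all higher in the knockout. Of all tested genes 9.07% were higher at that level, and 2617 reached it in either direction. Median centring, quantile normalization on top, an intensity trend and a robust fit called 0 members, as did the filters, with the smallest adjusted p of a member between 0.26 and 0.44. No groups were large enough to look for an outlying array.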

Other observations

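Outside the members, the glycogen and mitochondrial lists gave values that the upward lean of the members did not cover. Gbe1, the glycogen branching enzyme, read 7.55 and 7.50 in the mutants, against 8.10 and 8.03 in the controls, a log2 difference of -0.54 ± 0.080 (SE; limma, adjusted p = 0.322). It ranked at place 14 of 14095 genes by p, ahead of every member, and its pools were well separated. Ugp2, which makes the sugar nucleotide used for glycogen and matrix glycans, differed by -0.22 ± 0.080 with separated pools (limma, adjusted p = 0.439). Of 8 tested glycogen genes 3 were higher and 5 lower, with a median of -0.037, and 2 were lower and 0 higher at an unadjusted p under 0.05 (5.0% and 5.19% of all tested genes).

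Genes of the citric acid cycle differed in both directions, from -0.15 to 0.26: 10 of 16 were higher, the median was 0.018, and 1 had an unadjusted p under 0.05, Suclg1, a subunit of succinyl-CoA ligase (0.26 ± 0.084). Idh3a, a subunit of isocitrate dehydrogenase, differed by -0.15 ± 0.079. Of 10 tested genes of pyruvate fate 6 were higher (median 0.036). Pdp2, a phosphatase that activates pyruvate dehydrogenase, differed by 0.21 ± 0.090 with separated pools. Pdha1, a subunit of pyruvate dehydrogenase, differed by -0.22 ± 0.12 with overlapping pools. Of 7 tested pentose phosphate genes 4 were higher (median 0.081); Pgls differed by 0.17 ± 0.078 and Rpe by -0.21 ± 0.10. In limma 0 genes of these lists passed over all genes, and 0 of the pyruvate and pentose phosphate genes had an unadjusted p under 0.05.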
